A study of Mus musculus with 6 samples.

Results

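The surfactant proteins of the lung and the protease napsin A were followed in fetal mouse lungs with and without epithelial Smad1. The members are the 5 genes Sftpa1, Sftpb, Sftpc, Sftpd and Napsa, and every probe set whose platform symbol was one of them was taken, 8 of the 45037 probe sets tested. Each probe set was read on its own. The study compared wild type C57/BL6 embryos with Smad1 conditional knockout (CKO) embryos of the same strain, in which Smad1 was removed from the lung epithelium. Left lung lobes were taken at E18.5, and total RNA was hybridised to Affymetrix Mouse430_2 arrays, 1 for each lobe. There were 3 wild type and 3 CKO lobes, arranged as 3 pairs, here pairs 1 to 3, that carry the letters E, F and G in their array names. The labels used here do not give the Cre line, the floxed exons or the relation between the animals of a pair, so the p-values measure only the spread between these lobes. The lobe also holds endothelium, mesenchyme and blood cells, in which the gene was not targeted.

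Pulmonary surfactant is a film of lipid and protein that lowers surface tension in the air spaces and keeps the newborn lung from collapsing. Alveolar type 2 cells make it and store its lipid in lamellar bodies. The hydrophobic proteins SP-B (Sftpb) and SP-C (Sftpc) act in the film itself and are cut from larger precursors, partly by the aspartic protease napsin A (Napsa). SP-A (Sftpa1) and SP-D (Sftpd) are water-soluble collectins, lectins with a collagen-like stem that bind microbes, and SP-A also takes part in the ordering of surfactant lipid. Airway club cells make several of these proteins as well.

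Values are the deposited intensities, or log2 of intensity plus 1, and differences are CKO minus wild type on that log2 scale, as the mean of 3 pairs with the SD over pairs. Genotype was tested with limma over all probe sets, with the pair as a block. In bulk tissue, fewer cells of a type and less RNA per cell cannot be told apart. Array medians ran from 69.96 to 77.8. CKO 3 stood apart: the 18S ribosomal RNA control read 2887 there and 242.5 to 297.2 elsewhere, and the highest intensity was 16162 there and 27230 to 28089 elsewhere. In pair 3 the median difference was -0.96 over the brightest 15013 probe sets and -1.90 over the brightest 450. In pairs 1 and 2 it was -0.30 and -0.023 over the brightest 15013, and -0.13 and 0.010 over the brightest 450. Results are therefore also given without pair 3, which leaves the smaller shift of pair 1 in place. CKO 1 differed from the other arrays in sex-linked genes, with a log2 level of Xist of 10.9, against 6.07 to 7.70, and of Eif2s3y of 3.78, against 7.06 to 9.04. Smad1 itself gave a difference of 0.056 ± 0.51, and the sources used here do not say whether its probe set lies in the deleted part.

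Sftpa1, the gene of SP-A, was much lower in the CKO lungs. Its brighter probe set (1422334_a_at) read 6634, 9705 and 6084 in wild type lobes 1 to 3 and 236.2, 473.4 and 74.2 in CKO lobes 1 to 3. Every CKO lobe lay far below every wild type lobe, and within the wild type the levels differed by no more than 1.59-fold. In CKO lobes 1 and 2 this probe set was still brighter than 76.1% and 83.75% of the probe sets of its array. The intensities of the pairs were lower by 27.97-fold, 20.5-fold and 80.9-fold. The last is uncertain on both sides. It was against a CKO 3 level below the median of its array (77.8), so that the true fold may be larger. Bright probe sets as a whole were also lower in pair 3, so that it may be smaller. The pair 3 difference was -6.34, and it was -6.20 after quantile and -5.01 after cyclic loess normalization. The mean difference was -5.17 ± 1.04, with a 95% interval of -6.14 to -4.19, which is 18.3-fold to 70.6-fold lower (adjusted p = 0.102).

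The dimmer Sftpa1 probe set (1429626_at) gave the same picture and passed the test. It read 2353, 3994 and 2344 in wild type lobes and 43.8, 117.6 and 39.7 in CKO lobes. Its difference was -5.55 ± 0.41, a 46.7-fold lower intensity, with an interval of -6.11 to -4.98 (limma, adjusted p = 0.0205). Of all 45037 probe sets these 2 had the lowest mean differences. The pair values were -5.72, -5.07 and -5.85, which were the third, the first and the second lowest of all probe sets in pairs 1, 2 and 3. In CKO lobes 1 and 3 the dimmer probe set was brighter than only 34.9% and 26.8% of probe sets, so its fold is one of intensities near the dim end of the array, where the true fold may be larger, and it was 36.9-fold with a pseudocount of 16.

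The Sftpa1 call and the size of its fall depended on the setting, while its direction did not. The dimmer probe set lost the call without the pair block (adjusted p = 0.124), with a pseudocount of 16 (0.101), after quantile normalization (0.19), without pair 1 (0.781) and without CKO 3 in an unpaired fit (0.0879). Over 11 alternatives its difference stayed between -5.78 and -5.12, and that of the brighter probe set between -5.57 and -4.45. The fold of the brighter probe set was 35.9 with 3 pairs, 47.6 without pair 2, 24.6 after cyclic loess normalization, 23.9 without pair 3 and 21.8 without CKO 3. Without pair 3 both passed, at -5.39 (adjusted p = 0.000198) and -4.58 (adjusted p = 0.000248).

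**Figure D1:**
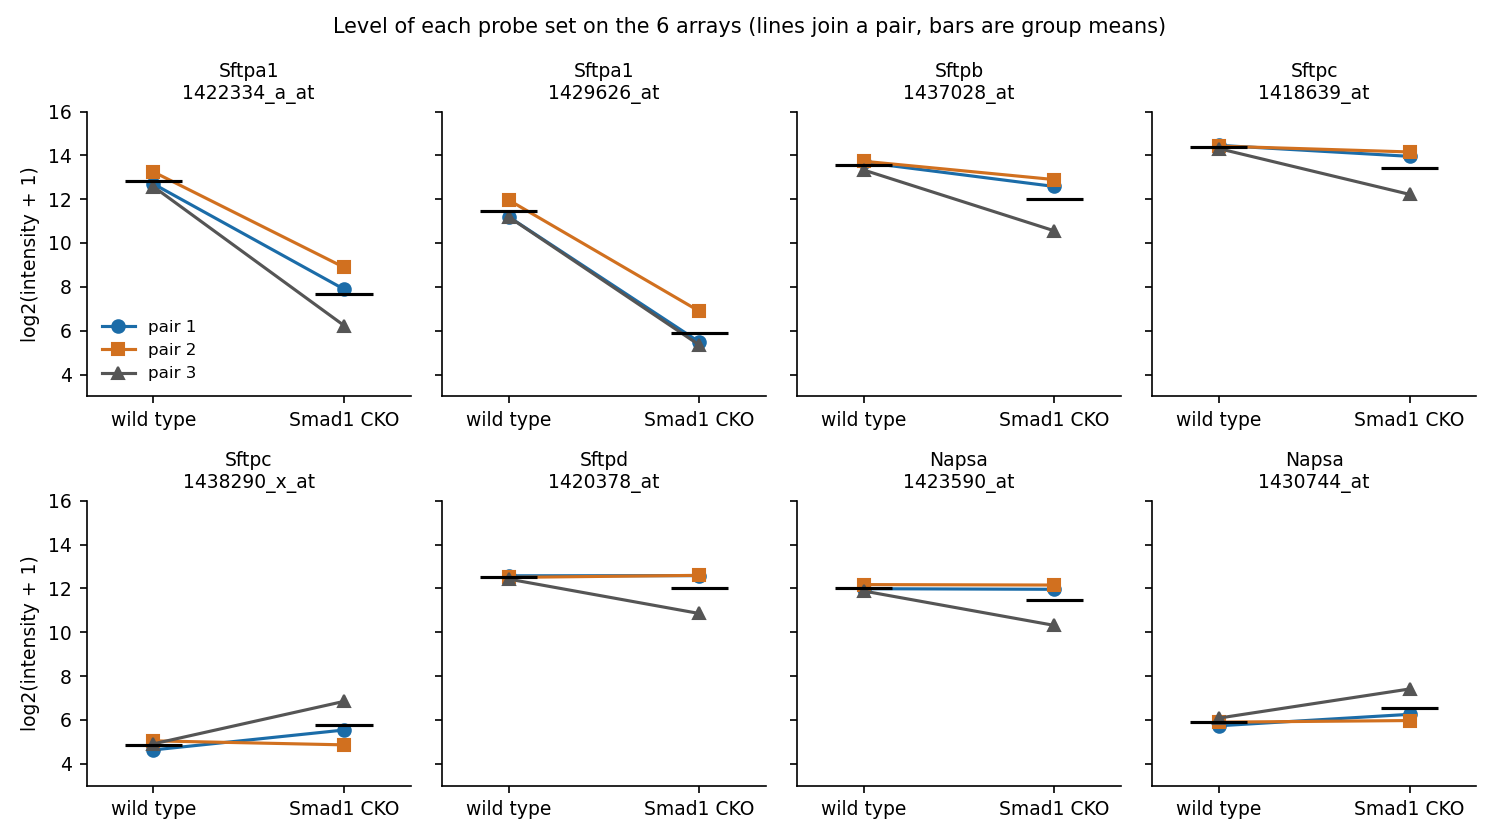
Level of all 8 probe sets as log2(intensity + 1) in wild type and Smad1 CKO lobes. Each line joins the lobes of 1 pair and the short bars are group means (n = 3). Both Sftpa1 probe sets drop steeply in every pair, Sftpb less, and Sftpd and the bright Napsa probe set are level in pairs 1 and 2 and lower in pair 3. The dim Sftpc and Napsa probe sets lie between 4.63 and 7.41.

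Sftpb, whose protein is needed to form lamellar bodies and a stable film at birth, was lower by a much smaller factor. Its only probe set (1437028_at) read 13158, 13591 and 10298 in wild type and 6117, 7608 and 1502 in CKO lobes. The groups did not overlap, and CKO 3 was the lowest of all. The pairs were 2.15-fold, 1.79-fold and 6.85-fold lower, a mean difference of -1.57 ± 1.05 with an interval of -2.56 to -0.59 (adjusted p = 0.367). Without pair 3 the difference was -0.97, with an interval of -1.46 to -0.48 (adjusted p = 0.379). It did not pass over all probe sets in either fit.

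Sftpc, the gene of the most type 2 cell-restricted surfactant protein, was among the brightest signals of the array. Its bright probe set (1418639_at) read 22488, 21935 and 20285 in wild type and 15865, 18237 and 4765 in CKO lobes. All CKO lobes lay below all wild type lobes, but in pairs 1 and 2 the gap was only 1.42-fold and 1.20-fold, against 4.26-fold in pair 3. The mean difference was -0.95 ± 0.99, with an interval of -1.89 to -0.013 (adjusted p = 0.367). Without pair 3 it was -0.38, with an interval of -0.87 to 0.10. Wild type levels were close to the highest intensity on the array, and no scanner values were used here, so a limit of the signal near the top was not tested.

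Sftpd, the gene of the second surfactant collectin, did not follow Sftpa1. Its probe set (1420378_at) read 6104, 5802 and 5509 in wild type lobes. It read 6134, 6191 and 1852 in CKO lobes, so CKO 1 and CKO 2 exceeded every wild type lobe and CKO 3 alone was low. The pair differences were 0.0072, 0.094 and -1.57, and the mean was -0.49 ± 0.94 with an interval of -1.39 to 0.41 (adjusted p = 0.446). Without pair 3 the difference was 0.050, with an interval of -0.43 to 0.53.

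Napsa, whose protease trims the SP-B and SP-C precursors, behaved much as Sftpd did. Its bright probe set (1423590_at) read 4058, 4623 and 3772 in wild type and 3981, 4555 and 1270 in CKO lobes. In pairs 1 and 2 the lobes of a pair differed by 1.02-fold and 1.015-fold, and the groups overlapped. The pair differences were -0.028, -0.021 and -1.57, with a mean of -0.54 ± 0.89 and an interval of -1.41 to 0.33 (adjusted p = 0.405). Without pair 3 the difference was -0.025, with an interval of -0.50 to 0.45. The wide 3-pair intervals of Sftpc, Sftpd and Napsa come with the low values of CKO 3, and those without pair 3 still allow changes of up to 0.87, 0.53 and 0.50 on the log2 scale.

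The remaining probe sets of Sftpc and Napsa were dim and ran the other way. The dim Sftpc probe set (1438290_x_at) read 23.8, 32.02 and 29.00 in wild type and 45.5, 28.1 and 114.1 in CKO lobes, a difference of 0.89 ± 1.06 (adjusted p = 0.367). The dim Napsa probe set (1430744_at) read 52.2, 58.6 and 66.8 in wild type and 75.4, 61.7 and 169.3 in CKO lobes, a difference of 0.64 ± 0.64 (adjusted p = 0.367). In the wild type both lay below the median of their arrays, while the bright probe sets of the same genes were brighter than at least 98.6% of probe sets. Both were highest in CKO 3, with pair 3 differences of 1.94 for Sftpc and 1.33 for Napsa. These were well above the pair 3 medians of the dimmest 15012 probe sets (0.28) and of the middle 15012 (0.17). In pair 1 the differences were 0.91 and 0.52, and in pair 2 they were -0.18 and 0.074. The cause was not tested.

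Counted over all 8 probe sets, 5 were lower in all 3 pairs, against 24.1% of all probe sets and 47% of the brightest 15013. In 4, the groups did not overlap with CKO lower, against 5.36% of all. The same 4 (both of Sftpa1, Sftpb and the bright Sftpc) were lower at an unadjusted limma p under 0.05. That share was 8.4% of all probe sets and 16.2% of the brightest 15013. A difference of -1 or lower (log2) in every pair was found in 0.173% of all probe sets, and among the members in 2, both of Sftpa1. Past the adjusted threshold there was 1, which was also the only one among all probe sets (0.00222%). Without pair 3, 24 probe sets were lower past it, among them both of Sftpa1, and no other member.

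**Figure D2:**
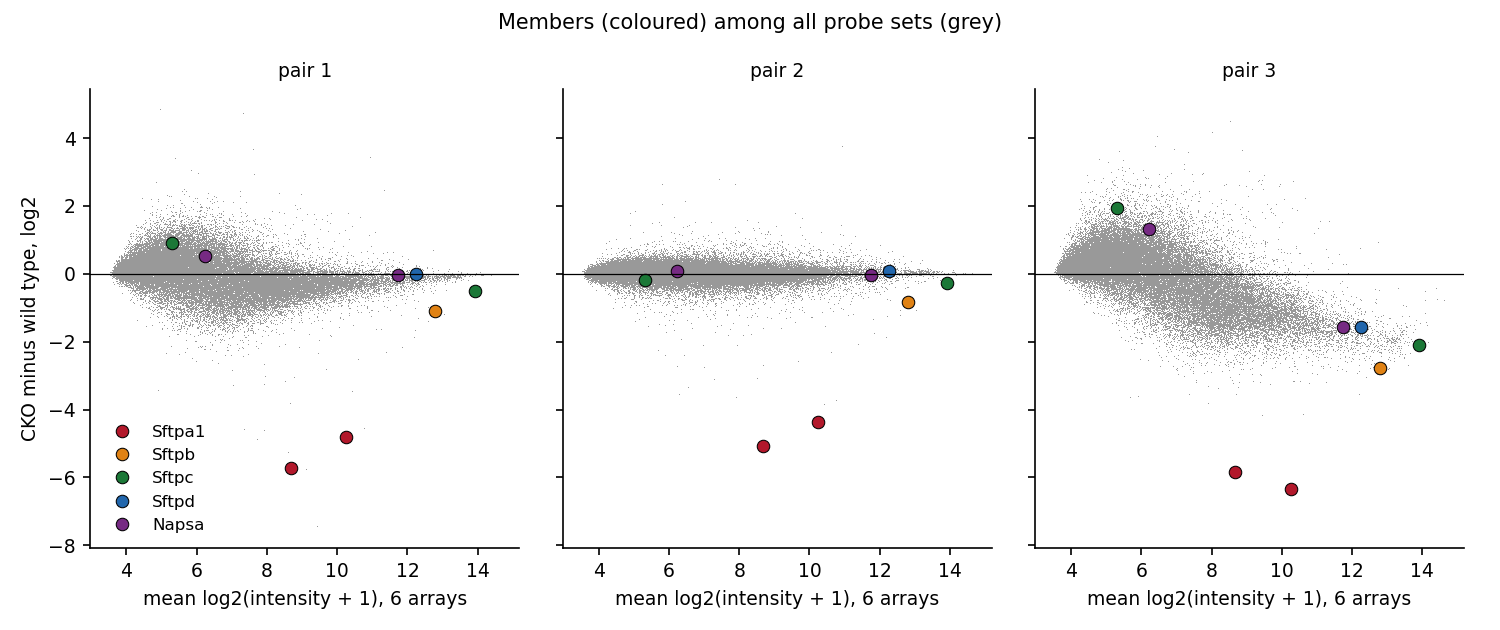
Difference CKO minus wild type (log2) against mean log2(intensity + 1) over the 6 arrays for all 45037 probe sets (grey) in each pair, with the 8 probe sets of the members coloured by gene. Sftpa1 lies far below the cloud in every pair. In pair 3 the cloud itself bends down for bright probe sets, where the median of the brightest 15013 is -0.96, and Sftpd and Napsa lie within it.

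Ranks within an array do not depend on its overall scale, and on this scale Sftpa1, Sftpb and Sftpc again stood lower in the CKO lobes. For Sftpc 4, 4 and 6 probe sets were brighter in wild type lobes 1 to 3, and 16, 11 and 37 in CKO lobes. For Sftpb the numbers were 65, 55 and 149 in wild type and 292, 256 and 525 in CKO. Both genes had thus moved down in every CKO lobe, CKO 3 included.

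Sftpa1 moved down the furthest, from 318, 176 and 335 brighter probe sets in wild type to 10762, 7318 and 23236 in CKO. Sftpd had 363, 393 and 389 brighter probe sets in wild type and 291, 352 and 362 in CKO, so every CKO lobe ranked it slightly higher. Napsa had 647, 550 and 641 in wild type and 522, 557 and 682 in CKO, and its groups overlapped. On this scale CKO 3 no longer stood apart for Sftpd and Napsa.

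**Figure D3:**
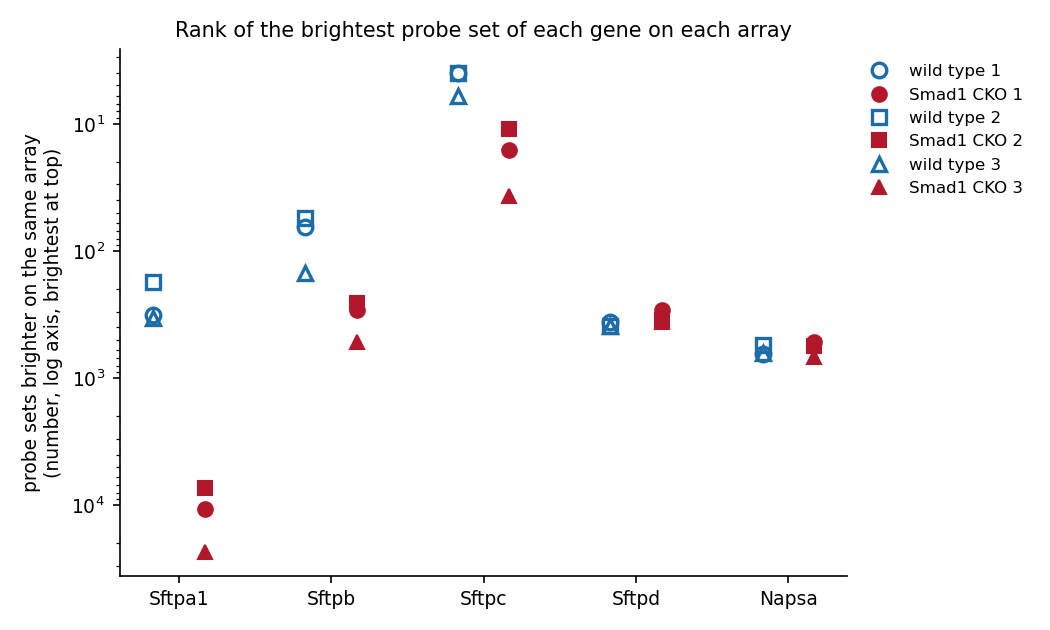
Number of probe sets brighter than the brightest probe set of each gene on the same array, on an inverted log axis, so that the top is the brightest. Open blue marks are wild type and filled red marks Smad1 CKO lobes, and the shape gives the pair. Groups are apart for Sftpa1, Sftpb and Sftpc, overlap for Napsa, and for Sftpd the CKO lobes lie slightly above the wild type.

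Between the bright probe sets, the distances between the members' differences were nearly the same in all 3 pairs. The difference of Sftpa1 minus that of Sftpb was -3.70, -3.52 and -3.56 (log2) in pairs 1 to 3, or -3.59 ± 0.096. Sftpb minus Sftpc gave -0.60, -0.57 and -0.69, or -0.62 ± 0.060. Sftpc minus Napsa gave -0.48, -0.24 and -0.52, or -0.41 ± 0.15. Sftpd minus Napsa gave 0.035, 0.12 and -0.0022, or 0.049 ± 0.060, with no common sign. These SDs over pairs are smaller than those of the bright probe sets' own differences, 0.89 to 1.05. The dimmer Sftpa1 probe set was not like this: minus Sftpb it gave -4.61, -4.24 and -3.07, or -3.97 ± 0.80, a wider spread than that of its own difference (0.41). A shift that members share within an array drops out of such differences by construction.

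Of the 10 pairs of members compared by their bright probe sets, 9 kept 1 order in all 3 mouse pairs. An exact permutation test within pairs then gives p = 0.25, the smallest that 3 pairs allow, or 0.278 after Benjamini-Hochberg adjustment over the 10, so the design cannot reach 0.05. The exception was Sftpd against Napsa (exact p = 0.5). A ratio within an array shows unequal differences only, not that any of the genes kept its level.

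Normalizing the arrays further left the order of the bright probe sets in place and drew their pair 3 values towards the others, except for Sftpa1 after quantile normalization, where pair 3 stayed at -6.20. The dim Napsa and Sftpc probe sets moved away after quantile normalization, to 1.80 and 2.11 in pair 3. After quantile normalization the differences were -4.94 ± 1.10 for Sftpa1 (bright probe set), -0.98 ± 0.15 for Sftpb, -0.46 ± 0.13 for Sftpc, 0.12 ± 0.073 for Sftpd and 0.047 ± 0.16 for Napsa. After cyclic loess normalization they were -4.62 ± 0.35, -0.89 ± 0.053, -0.22 ± 0.25, 0.16 ± 0.074 and 0.089 ± 0.11. Sftpd and Napsa thus changed sign with the scaling, and their direction is not settled. The mean of Sftpc stayed below 0, but after cyclic loess its pair values were -0.42, -0.31 and 0.062. It was then no longer lower in every pair, and its interval ran from -0.63 to 0.18. Among the bright member probe sets, only Sftpa1 after cyclic loess passed here (limma, adjusted p = 0.0066), and the adjusted p of Sftpb was 0.485 and 0.336.

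**Figure D4:**
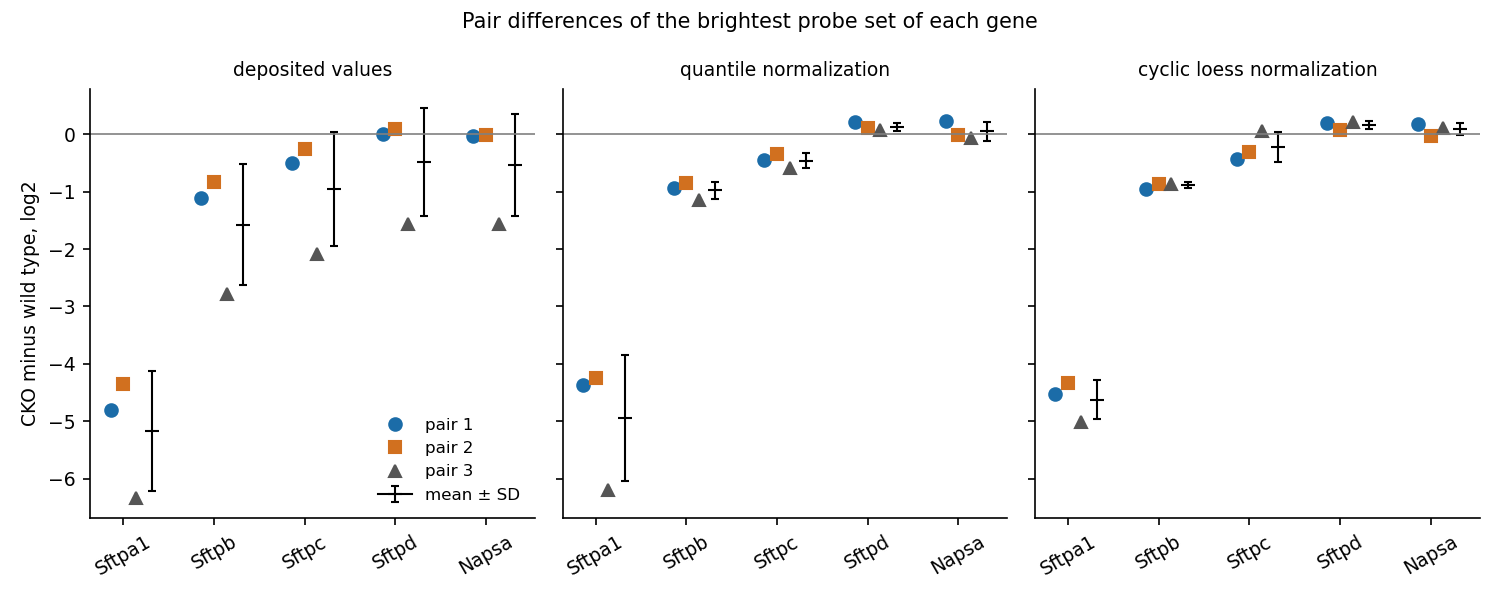
Pair differences (log2, CKO minus wild type) of the brightest probe set of each gene with the deposited values, after quantile and after cyclic loess normalization. Coloured marks are pairs and the black bar is their mean ± SD. The order from Sftpa1 through Sftpb and Sftpc to Sftpd and Napsa is alike in the 3 panels, and the SD of Sftpb shrinks from 1.05 to 0.15 and 0.053.

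Sequence before the start site was at hand for 2 of the 5 members, Sftpa1 and Sftpb, which had the largest differences. The 250 bases before each start site are shown because these 2 genes were both lower in every pair but by very different amounts. They are RefSeq sequence of build GRCm38.p6, plus strand, at chr14:41131538-41131787 for Sftpa1 and chr6:72304360-72304609 for Sftpb. Capitals mark CTCAAG, a core bound by the lung epithelial factor NKX2-1, and TGTTTG, a core bound by FOXA factors, on either strand.
Sftpa1: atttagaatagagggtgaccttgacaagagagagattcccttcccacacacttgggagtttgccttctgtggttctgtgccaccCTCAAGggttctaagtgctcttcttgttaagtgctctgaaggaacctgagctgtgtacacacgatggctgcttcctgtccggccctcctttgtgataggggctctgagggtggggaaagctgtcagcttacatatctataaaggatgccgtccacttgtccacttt
Sftpb: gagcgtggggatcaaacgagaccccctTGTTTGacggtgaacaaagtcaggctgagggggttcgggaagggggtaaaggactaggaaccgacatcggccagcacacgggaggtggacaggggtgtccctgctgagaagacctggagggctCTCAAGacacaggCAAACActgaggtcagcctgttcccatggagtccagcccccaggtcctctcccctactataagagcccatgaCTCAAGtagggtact

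The motifs were chosen after these sequences had been seen, and a match is a description only. CTCAAG was found once before Sftpa1, from 166 to 161 bases before the start, and at 2 places before Sftpb, from 100 to 95 and from 15 to 10 bases before it. Of 32851 windows of this length in the table, 13.3% held it on either strand. TGTTTG had 2 matches before Sftpb, from 223 to 218 bases before the start and, on the other strand, from 87 to 82, and 0 before Sftpa1, against 16% of windows. The SMAD box CAGAC (42.2% of windows) and the GC-rich SMAD1/5 element GGCGCC (9.59%) had 0 matches in both windows, which says only that these letters are not there. A TATA core lay from 30 to 25 bases before both starts, as TATAAA in Sftpa1 (12.4% of windows) and TATAAG in Sftpb (6.65%). These motifs did not overlap one another in either window.

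Genes that process, store or load surfactant formed a mixed group. Of 19 listed, 17 were measured by a probe set of that symbol, with a median difference of -0.56, against -0.095 over all 18193 genes. At an unadjusted limma p under 0.05, 5 were lower (9.96% of all genes) and 1 higher (4.96%), and 0 passed after adjustment, as for all genes by their brightest probe set (0%). Among the brightest 15013 probe sets the lower share was 16.2%. Scd1, a desaturase of fatty acid synthesis, was at -3.86 ± 0.67, the phosphatidylcholine-remodelling enzyme Lpcat1 at -2.28 ± 0.58 and the lamellar body lipid pump Abca3 at -1.88 ± 0.78. The phosphate carrier Slc34a2 was at -1.74 ± 0.71. Without pair 3 the list median was -0.14. All 4 of these genes were lower than Sftpb, Sftpc, Sftpd and Napsa in pairs 1 and 2, where they ranged from -4.58 to -1.24.

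The other proteases of the group had other values than these lipid genes. Ctsh, cathepsin H, a cysteine protease that also cuts SP-B and SP-C precursors, gave -0.036, -0.013 and -2.37 in pairs 1 to 3, like Napsa level in pairs 1 and 2 and low in pair 3. It was singled out for this role after its values had been seen. Pgc, progastricsin, an aspartic protease linked to SP-B processing, was higher at 1.58, 0.37 and 1.40, from a dim wild type level of 6.37 (log2) to 7.49. Over the 15 measured aspartic proteases and cathepsins the median was -0.34, but -0.037 without pair 3 and 0.12 after cyclic loess normalization, so it had no settled direction. Of them 0 were lower and 2 higher at an unadjusted limma p under 0.05. The second was Bace2, a transmembrane aspartic protease, at 1.07 ± 1.09, with 1.27, -0.10 and 2.05 in the pairs. Its wild type level was dim too, at 6.57 (log2), and 2 of its 5 probe sets were lower. The cathepsins Ctsc and Ctsz, at -0.90 and -0.95, came next by p and did not pass.

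Factors known to regulate surfactant genes were lower in part. Of 21, all measured, 5 were lower at an unadjusted limma p under 0.05 (9.96% of all genes) and 0 higher (4.96%), with a median of -0.43, and -0.17 without pair 3. Most of the 21 were bright, and among the brightest 15013 probe sets the lower share was 16.2%, so the count alone says little. The 5 were Cebpa (-0.95 ± 0.45), Etv5 (-1.19 ± 0.89), the sterol factor Srebf1 (-0.64 ± 0.28), Cebpd (-0.71 ± 0.55) and Nfatc3 (-0.59 ± 0.43), none of which passed after adjustment. Nkx2-1 was at 0.028, 0.11 and -0.46 in the pairs, Foxa2 at -0.071, 0.19 and -0.79, and Foxa1 at 0.23, 0.84 and -0.997. Those 3 were singled out because the printed motifs are named for them. After cyclic loess normalization the median of the list was 0.034.

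Relatives of the members by protein family were mixed. Of 7 collectins and ficolins the median was 0.25. At an unadjusted limma p under 0.05, 2 were lower, Colec10 at -0.94 ± 0.42 and Colec12 at -1.11 ± 0.94. Another 2 were higher, Colec11 at 0.86 ± 0.65 and Mbl2 at 0.65 ± 0.48. Of the 7, all but Colec12 were dim, with wild type means of 4.24 to 6.80 (log2). Once dim probe sets were left out the median was -0.94, which is the value of Colec10 alone. Colec10 had a mean of 6.80 in wild type and 5.86 in CKO lobes, so the turn of this median rests on few genes. SP-C belongs to the BRICHOS family and SP-B to the saposin-like proteins, and the 11 measured members of both had a median of 0.17, or -0.34 without dim probe sets. Itm2a was lower (-1.08 ± 0.83) and Gkn2 higher (0.86 ± 0.70), and Tnmd (0.44) and Aoah (0.56) came next. None of these passed after adjustment.

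Markers of type 2 cells other than the members were widely lower. Of 23 measured, 16 were lower at an unadjusted limma p under 0.05 (9.96% of all genes), 0 passed after adjustment, and 20 were lower in all 3 pairs (29.3% of all genes), with a median of -1.50, and -1.07 without pair 3. Among the brightest 15013 probe sets those shares were 16.2% and 47%. Hc, complement component 5, was at -3.40 ± 0.53 and the calcium-binding S100g at -1.97 ± 0.18, with Scd1 and Lpcat1 as above. Their summed intensity ran from 90460 to 106600 in wild type and from 17860 to 60760 in CKO lobes. This list was drawn up with earlier results of these data known, so its direction is not independent evidence.

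Markers of other cell types moved in their own ways beside the members. The 19 alveolar type 1 markers had a median of -0.78 (-0.35 without pair 3), with Aqp5 at -3.05, Rtkn2 at -1.45, Scnn1g at -1.10 and Col4a3 at -0.81. Of these type 1 markers 16 were lower in all 3 pairs (29.3% of all genes). At an unadjusted limma p under 0.05, 9 were lower (9.96% of all genes), and 0 passed after adjustment. Among the brightest 15013 probe sets 47% were lower in all 3 pairs and 16.2% at that unadjusted p. The 21 general epithelial markers had a median of -0.15 (0.14 without pair 3), with Prom1 at -0.76, Ocln at -0.56, Krt19 at -1.01 and Cldn4 at 0.50. Their summed intensity ran from 25870 to 27580 in wild type and from 10840 to 31570 in CKO lobes, the lowest being CKO 3. Whether a change in the number of epithelial cells takes part in the members' differences was not tested.

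Club cells make SP-A, SP-B and SP-D too, and 14 of their markers had a median of -0.29, or 0.087 without pair 3. Scgb1a1, their main secreted protein, was at -0.21, -0.26 and -1.95 in the pairs, Aldh1a1 at -1.08 and Scgb3a1 at 0.93. Pon1, which was also listed among the type 2 markers, was at -2.91. The 11 ciliated cell markers had a median of -0.20, or -0.035 without pair 3, and the 9 neuroendocrine markers one of 0.27, or -2.13 without dim probe sets, which is the value of Ddc. Outside the epithelium, medians were -0.97 for 16 endothelial markers, all lower in all 3 pairs, -0.69 for 15 mesenchymal markers, -0.16 for 13 leukocyte and macrophage markers and 0.36 for 5 red cell markers. The red cell median was -0.78 without dim probe sets, which is the value of Slc4a1. Slc4a1 and Alas2 (-0.48, -0.13 and -2.74) were lower in all 3 pairs, while the dimmer Hba-a1 (0.49), Klf1 (0.43) and Epb42 (0.36) were higher on average. Of all genes 29.3% were lower in all 3 pairs, and of the brightest 15013 probe sets 47%. Without pair 3 the endothelial, mesenchymal, leukocyte and red cell medians were -0.63, -0.069, -0.031 and 0.28. At an unadjusted limma p under 0.05, 14 of the 16 endothelial and 2 of the 15 mesenchymal markers were lower (9.96% of all genes, 16.2% of the brightest 15013 probe sets). Of both lists 0 passed after adjustment. Summed intensity in wild type and CKO lobes ran from 31970 to 42630 and from 11190 to 41250 for club cell markers, and from 26660 to 36990 and from 9395 to 25060 for endothelial markers. No listed marker read 0 on any array. The part of these cells in the members' differences was not tested.

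**Figure D5:**
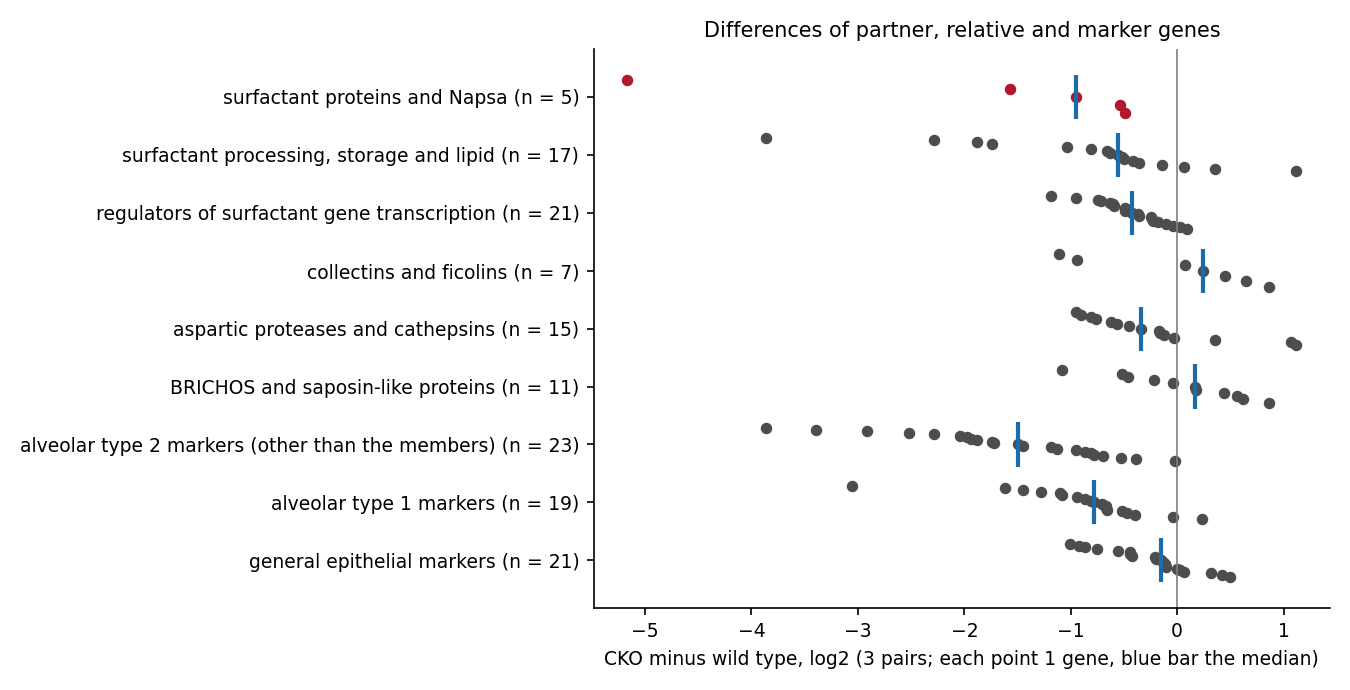
Difference CKO minus wild type (log2, mean of 3 pairs) of each gene by its brightest probe set, for the 5 members (red) and 8 of the gene lists (dark), with the list median as a blue bar. Sftpa1 at -5.17 is the lowest point, and the type 2 markers reach from -3.86 to -0.023 around a median of -1.50. Collectins and BRICHOS or saposin-like relatives have medians above 0. Both medians turn below 0 without dim probe sets, where fewer genes are left.

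The genes with the most similar pattern were sought for each member, as the smallest root mean square distance between log2 profiles centred on their own means, over 6 arrays and 16317 named genes. No gene came close to Sftpa1: the nearest were Scd1 at a distance of 1.11, Bex2 at 1.20 and Vnn1 at 1.30, all of them lower by less. The profiles were not scaled, so the gene with the lowest difference of all lies far from every other by construction. For Sftpb the nearest were Lyz1 (0.089), which encodes a lysozyme, Clic5 (0.14) and Tgoln1 (0.16). Lyz1 gave -1.22, -1.11 and -2.79 in the pairs, close to the values of Sftpb.

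Sftpc was nearest to Phyh, Gpx1 and Cul3, at distances of 0.033, 0.035 and 0.052. Sftpd was nearest to Ddx39b, Bgn and Rps26, and Napsa to Map1lc3b, Ddx17 and Anapc2, at 0.036 to 0.044. Those profiles are mostly flat with a low value in CKO 3, which many bright genes shared. Between members, Sftpd and Napsa lay 0.099 apart, with 102 genes nearer to Sftpd than Napsa was, and Sftpa1 was at least 1.81 from every other member. These distances describe 6 arrays and were not tested.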

How the data were processed

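RNA of 6 left lung lobes was read on Affymetrix Mouse430_2 arrays. The deposited values are linear intensity per probe set, judged by their range. The submitters' processing notes list RMA, a method that corrects background, normalizes and summarises probes, with no version or settings. Columns still differed in their quartiles. Here 64 control probe sets were left out and log2(value + 1) was taken, which slightly shrinks the differences of dim probe sets.

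The test was limma 3.58.1 (R 4.3.3; lmFit, eBayes, two-sided, pair as fixed block), adjusted by Benjamini-Hochberg over 45037 probe sets at 0.05. Pairs come from the design text and array names. Deviations from group means correlated at 0.258, 0.604 and 0.597 within pairs and at most 0.215 between them. On simulated data with independent noise the fit called 98.7% of planted falls of 5 and 65.3% of falls of 2 (log2), with 29 false calls among 521. The simulated data held no pair effects and no array like CKO 3, so these shares do not give the power on the real arrays. There the brighter Sftpa1 probe set, at -5.17, was not called.

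Of the probe sets, 34945 had 1 symbol in the platform annotation, 932 several and 9160 none. A gene in a list was represented by its brightest probe set. Lists were described by counts and medians, and from each up to 4 genes with the smallest p were named, plus the fifth regulator lower at an unadjusted p under 0.05, genes singled out where the text says so, and those nearest in pattern. Members, lists, alternatives and motifs were chosen with earlier results of these data known. The smallest exact p is 0.25 within pairs and 0.1 without them. The number of arrays limits the precision.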

Additional observations from a re-analysis of the deposited data

How the results depend on the processing

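The pair as a block, the pseudocount, the filter on dim probe sets, 2 further normalizations, an intensity trend, array weights and the leaving out of pairs or of CKO 3 were tried. Both Sftpa1 probe sets, Sftpb and the bright Sftpc probe set had a difference below 0 in each of the 11 alternatives, though not in every pair for Sftpc. The dim Napsa and Sftpc probe sets were higher in all 11 and all 10 that measured them. The dim filter kept the dim Napsa probe set although its wild type levels lay below the medians of their arrays. It was brightest in CKO 3, so that alternative is no separate support for a higher level.

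The dimmer Sftpa1 probe set lost its call without the pair block (-5.55), with a pseudocount of 16 (-5.21), after quantile normalization (-5.41) and without pair 1 or without CKO 3 (-5.78 to -5.27 on leaving out pairs or CKO 3). The brighter one gained a call with the dim filter and with the intensity trend (both -5.17), after cyclic loess (-4.62), with array weights (-4.83) and without pair 3 (-5.57 to -4.45 on leaving out). The difference of the bright Napsa probe set turned to 0.047 after quantile and 0.089 after cyclic loess normalization, and ran from -0.80 to 0.042 on leaving out, above 0 only without CKO 3. That of Sftpd turned to 0.12 and 0.16, and ran from -0.78 to 0.088 on leaving out, above 0 without pair 3 and without CKO 3. With array weights Sftpb (-1.15), the bright Sftpc (-0.54), the dim Sftpc (0.87) and the dim Napsa (0.52) were called, in a fit that called 12747 probe sets lower and 10487 higher. The cause was not tested.

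With the deposited values and 3 pairs, 1 probe set was lower and 0 higher past the adjusted threshold. The lower count was 0 without the pair block, with a pseudocount of 16 and after quantile normalization, 16 with the dim filter, 2 after cyclic loess and 30 with an intensity trend, which also called 2 higher. Leaving out pairs or CKO 3 gave 0 to 24 lower and 0 to 4 higher. At an unadjusted p under 0.05 and at least 1.5-fold, 3344 were lower and 1561 higher, or 31.8% higher, against 41.6% after quantile and 46% after cyclic loess normalization. The lower count was 1123 without the pair block, 1745 after quantile, 2016 after cyclic loess and 5851 with array weights, and 593 to 7019 on leaving out pairs or CKO 3. The higher count was 287 without the block, 530 with a pseudocount of 16, 531 with the dim filter, 2398 with a trend and 4527 with weights, and 62 to 3615 on leaving out.

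List medians moved by less than their spread over pairs in 155 of 165 cases, a count that takes in changes of sign. After quantile and cyclic loess normalization general epithelial markers went from -0.15 to 0.26 and 0.34, and club cell markers from -0.29 to 0.16 and 0.22. Aspartic proteases and cathepsins (-0.34) went to 0.079 and 0.12, and leukocyte and macrophage markers (-0.16) to 0.054 and 0.13. The type 2, type 1, endothelial and mesenchymal medians remained negative. The median of BRICHOS and saposin-like genes went from 0.17 to -0.34 with the dim filter. It was 0.32 after quantile, 0.29 after cyclic loess, 0.074 with weights and 0.10 to 0.25 on leaving out pairs or CKO 3. With the dim filter, which leaves fewer genes, collectins went to -0.94, neuroendocrine markers to -2.13 and red cell markers to -0.78. These medians are the values of single genes, Colec10, Ddc and Slc4a1. With 3 pairs, changes smaller than the intervals given cannot be seen, and dim probe sets lie too near the background to be ordered.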

Other observations

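Sftpa1 and Sftpd are close neighbours on mouse chromosome 14, with Mbl1, a mannose-binding collectin, as the measured gene between them in the RefSeq gene table. Their differences were far apart, at -5.17 and -0.49, and Mbl1 gave 0.25, with 0.19, -0.14 and 0.69 in the pairs and a dim wild type level of 6.001 (log2). On the other side of Sftpa1 the nearest measured genes were Mat1a at 0.19, Dydc1 at 0.39 and Dydc2 at 0.51, none with an adjusted p under 0.05 in limma. Sftpc lies elsewhere on the same chromosome, and its neighbours Bmp1 and Lgi3 were at 0.20 and -0.53. The neighbours of Napsa on chromosome 7, Pold1 and Myh14, were at 0.17 and -0.75, and those of Sftpb on chromosome 6, Atoh8 and Usp39, at -0.11 and -0.27. These genes were chosen by position, and no cause was tested.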
